A study of Rattus norvegicus with 15 samples.

Results

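Genes that control or carry out heat production in fat, 10 in all, were followed in epididymal fat, the visceral depot beside the testis, of obese and lean rats. The members were taken by name, as the probe sets (groups of probes against 1 transcript) that the platform annotation assigns to exactly 1 gene, that gene being Ucp1, Ucp2, Ppargc1a, Ppargc1b, Cox7a1, Cox8b, Dio2, Elovl3, Prdm16 or Esrra. All 10 genes were found, on 13 probe sets, out of 14217 genes named in this way on the array. Ppargc1a had 3 probe sets, Prdm16 had 2 and the other 8 genes had 1 each.

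The obese group held 7 male Long-Evans rats of a private colony reared since weaning on TD95217, a feed high in fat and in sucrose. The 8 lean rats were males of that colony reared on Purina 5008 chow. The labels name no transgene, drug or surgery in either group. The rats arrived at 14 weeks of age, were housed singly with free access to feed, and were killed at 26 weeks, in the fed state; RNA of each rat went to 1 Affymetrix RAE230_2 array. Diet and obesity cannot be told apart here, and neither, in whole tissue, can fewer cells of a type and less RNA per cell.

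Uncoupling protein 1 lets protons leak back across the inner mitochondrial membrane, so that brown fat cells burn fuel as heat. Noradrenaline, acting through beta-adrenergic receptors and cAMP, raises its transcription together with that of the coactivator PGC-1alpha (Ppargc1a) and of Dio2, the deiodinase that makes active thyroid hormone inside the cell, while PRDM16 holds the brown fat fate. Epididymal fat of rodents is a white depot in which few such cells are found at ordinary room temperature. PGC-1beta (Ppargc1b) and the nuclear receptor ERRalpha (Esrra) also serve mitochondrial genes in white fat, and Ucp2 is abundant in macrophages.

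No member differed between obese and lean rats past the threshold, and the largest difference among them was a lower signal of Dio2 in obese rats. With all 15 arrays, limma (Benjamini-Hochberg adjusted p under 0.05, adjusted over 31042 probe sets) called 0 of the 13 probe sets, and 1, that of Dio2, had an unadjusted p under 0.05. Over the whole array 0.00966% of probe sets were called, and 11.8% had an unadjusted p under 0.05, 7.43% with a lower signal in obese rats. Obese rat 1 and lean rat 7 gave near-identical arrays, with a median absolute log2 difference of 0.13 over all probe sets against 0.24 for the next closest pair of arrays, although the labels put them in different groups. Without this pair, with 6 obese and 7 lean rats, limma again called 0 of the 13, with 1 at an unadjusted p under 0.05, against 0.148% and 13.7% of all probe sets, 8.69% being lower at that unadjusted p. Of the 10 genes, each by its brightest probe set, 3 had a positive and 7 a negative log2 fold change in both sets of arrays, where 39.6% and 39.3% of all probe sets were positive. The median over the 10 was -0.07 with 15 arrays and -0.08 without the pair, and over all probe sets it was -0.06 and -0.07. The obese and lean ranges of all 13 probe sets overlapped in both sets of arrays, and over the array the groups did not overlap for 0.148% of probe sets with 15 arrays and 1.01% without the pair.

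Most member probe sets were dim. Signals are MAS5 intensities on a linear scale, with a trimmed mean of about 1500.4 on each array as deposited; fold changes are on the scale log2(signal + 79.9), which understates changes of dim probe sets. Of the 13 probe sets 3, those of Ucp2 and Ppargc1b and the brightest of Ppargc1a, lay above the 40th percentile of mean log2 signal, at a signal of about 530.6. Ucp2 lay at the 92.5th percentile, Ppargc1b at the 75th and Ppargc1a at the 54.3rd. The other 10 ran from the 2.78th percentile for Cox8b to the 29.6th for Esrra. Probe sets at or below the 40th percentile had a median SD of 0.56 on the log2 scale within groups, and those above it 0.26. Between the near-identical arrays, the 3 brighter probe sets differed by 0.0098 to 0.11 on the log2 scale and the 10 dimmer ones by 0.0071 for Ucp1 to 1.24 for Cox7a1, with 0.049 for Cox8b, 0.056 for Dio2 and 1.02 and 0.76 for the probe sets of Prdm16. The number of arrays limits the precision, and a percentile ranks the brightness of probe sets, not the amounts of transcripts.

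**Figure D1:**
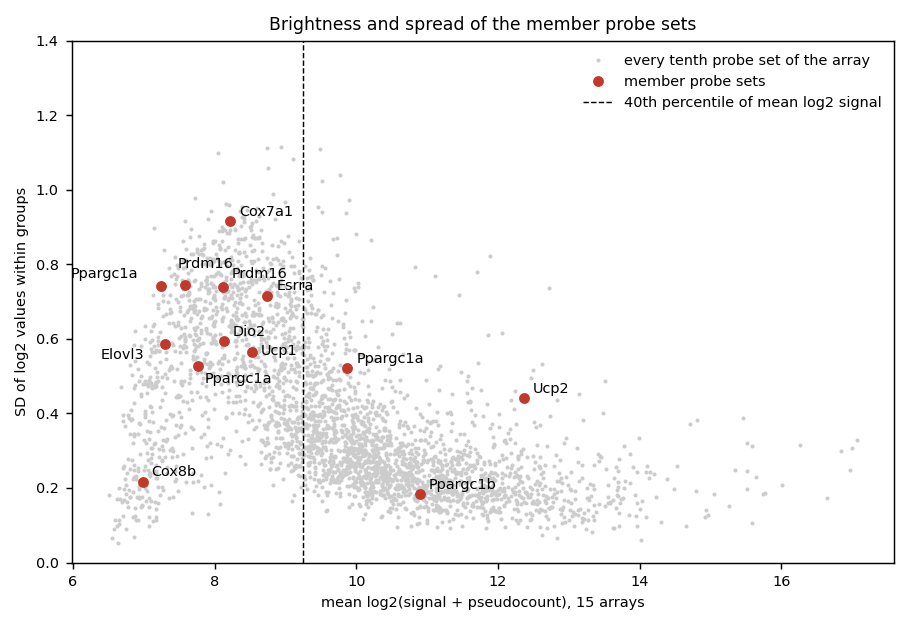
Red points are the member probe sets and grey points a regular sample of the array: the x axis is its mean log2(signal + 79.9) over 15 arrays, the y axis the SD of its log2 values within the obese and lean groups, and the vertical dashed line the 40th percentile of brightness. Ucp2, Ppargc1b and 1 probe set of Ppargc1a lie to the right of the line, and the other 10 member probe sets lie to its left, where most probe sets scatter more.

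The uncoupling proteins come first. Ucp1 (Entrez gene 24860), the brown fat uncoupler itself, had signals of 108.5, 339.6 and 458.2 (lowest, median and highest) in 7 obese rats and of 151.4, 336.4 and 487.4 in 8 lean rats. The ranges all but coincided, with obese rats 6 and 7 below every lean rat and lean rat 3 above every obese rat. Obese minus lean came to -0.08 ± 0.27 on the log2 scale (SE; limma adjusted p = 0.93), with a 95% interval of -0.66 to 0.50, and its sign turned under median centring and quantile normalization. Leaving out obese rat 6, obese rat 7 or lean rat 3 also turned it, to 0.037, 0.075 and 0.0049. Without the pair it was -0.10 ± 0.29 (SE; limma adjusted p = 0.903). At this brightness the interval on the log2(signal + 79.9) scale does not bound a change of the transcript.

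Ucp2 (54315), a relative found in many tissues and in immune cells, whose part in heat production is disputed, was the brightest member. Its signals were 3899.6, 5929.2 and 9466.9 in obese rats and 3282.8, 4743.9 and 7369.6 in lean rats. Obese rats 6 and 3 lay above every lean rat, and lean rats 4, 7 and 8 lay below every obese rat. The log2 fold change was 0.25 ± 0.22 with 15 arrays (SE; limma adjusted p = 0.683) and 0.29 ± 0.23 without the pair (SE; limma adjusted p = 0.606), with an interval of -0.20 to 0.78 in the latter. Leaving out obese rat 6 gave 0.12 from 15 arrays and 0.16 from the 13. Beside this, all 18 macrophage markers measured were higher on average in obese rats, their log2 fold changes having a median of 0.41 with 15 arrays and 0.47 without the pair; 0 of 18 passed with 15 arrays and 1, Gpnmb, without the pair. The rats' mean over these 18 markers, relative to all arrays, ran from -0.26 to 0.97 in obese and from -0.58 to 0.13 in lean rats. It was highest in obese rat 6, which also had the highest Ucp2 signal, but stood at 0.03 in obese rat 3, the next highest for Ucp2. Lean rat 6, with the lowest mean, had a Ucp2 signal of 5493.7, and obese rat 7, with a mean of 0.33, had 4405.5. Lean rat 1 had the highest marker mean and the highest Ucp2 signal of the lean rats (0.13 and 7369.6). Obese rat 1 had the lowest of both among the obese rats (-0.26 and 3899.6). The part of macrophages in the Ucp2 values was not tested.

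The difference between both uncoupling proteins within a rat, log2 Ucp2 minus log2 Ucp1, averaged 4.01 ± 0.80 among the obese (SD, n = 7) and 3.69 ± 0.67 among the lean rats (SD, n = 8). These differed by 0.32 (exact two-sided permutation p = 0.41, adjusted p = 0.547 over 4 such pairs), so unequal change of Ucp1 and Ucp2 was not detectable. Without the pair the difference was 0.39 (exact two-sided permutation p = 0.305, adjusted p = 0.407).

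**Figure D2:**
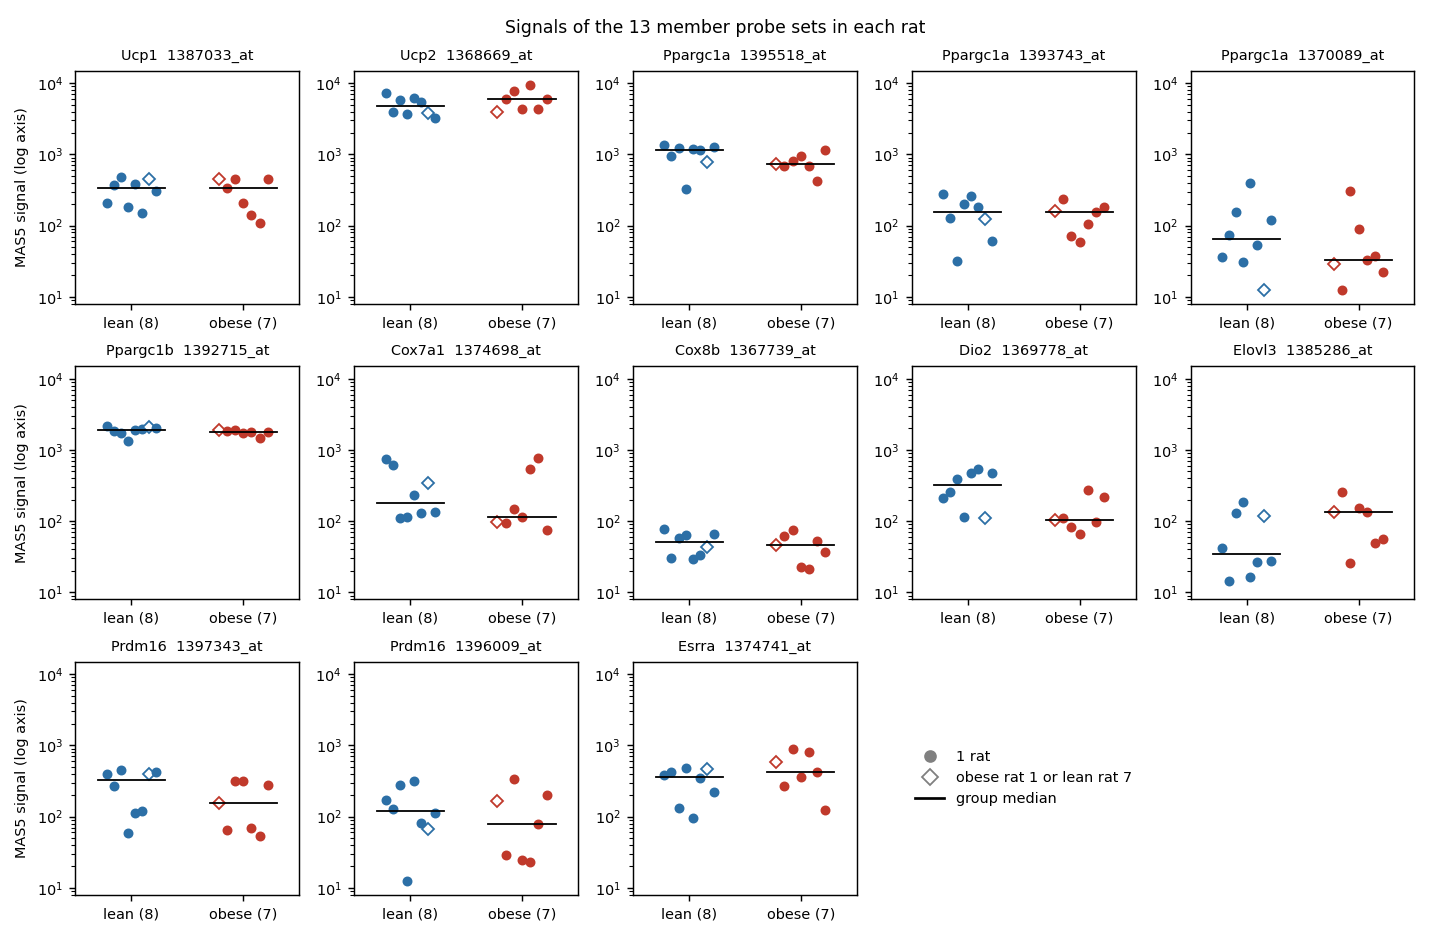
MAS5 signal on a log axis for each of the 13 member probe sets; each filled point is 1 rat, open diamonds are obese rat 1 and lean rat 7, and black lines are group medians. The groups overlap in every panel; for Dio2 the obese median of 104 lies below the lowest lean signal of 111.3.

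Among the coactivators, Ppargc1a (83516), which drives mitochondrial and thermogenic genes in response to cold, had a lower median in obese rats on its brightest probe set. Its signals were 417.3, 729.6 and 1154.6 in obese rats and 326.6, 1168.1 and 1360.4 in lean rats. All 7 obese rats lay below the lean median, and 4 lean rats lay above every obese rat, but lean rat 4 was the lowest of all 15. Its log2 fold change came to -0.34 ± 0.25 (SE; limma adjusted p = 0.614), and without the pair -0.38 ± 0.29 (SE; limma adjusted p = 0.596; 95% interval -0.99 to 0.24). Dropping lean rat 4 gave -0.54 from 15 arrays and -0.61 from the 13, and dropping obese rat 7 gave -0.22 and -0.23. The dimmer probe sets, at the 13.2th and 5.94th percentile, differed by -0.08 ± 0.25 and by -0.27 ± 0.35 on the log2 scale (SE; limma adjusted p = 0.924 and 0.8). On the dimmest obese rat 3 stood at 308.8 and lean rat 5 at 397.1, while the obese median was 32.7 and the lean median 64.4. The sign of all 3 probe sets was negative in both sets of arrays.

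Ppargc1b (291567), the coactivator that sustains mitochondria and fat synthesis without depending on cold, had the narrowest spread of the brighter members. Its signals were 1458.1, 1807 and 1929 in obese rats and 1314.6, 1911.9 and 2199.8 in lean rats. The log2 fold change was -0.06 ± 0.11 (SE; limma adjusted p = 0.853), with a 95% interval of -0.29 to 0.17, and its sign turned under median centring. On the scale of signal + 79.9, the interval ran from 0.817 to 1.12 of the lean level with 15 arrays. Log2 Ppargc1a minus log2 Ppargc1b within a rat averaged -1.17 ± 0.35 among the obese (SD, n = 7) and -0.89 ± 0.44 among the lean rats (SD, n = 8), a difference of -0.28 (exact two-sided permutation p = 0.195, adjusted p = 0.391).

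Ppargc1a carries in its promoter a cAMP response element, the site through which CREB acts on it after beta-adrenergic stimulation. The sequence is shown because the receptors of that input were measured on the same arrays. The 250 bases before the start of Ppargc1a in RefSeq's promoter table (GRCr8, chr14:63634058-63634307, plus strand) are printed with the element TGACGTCA in capitals:
Ppargc1a: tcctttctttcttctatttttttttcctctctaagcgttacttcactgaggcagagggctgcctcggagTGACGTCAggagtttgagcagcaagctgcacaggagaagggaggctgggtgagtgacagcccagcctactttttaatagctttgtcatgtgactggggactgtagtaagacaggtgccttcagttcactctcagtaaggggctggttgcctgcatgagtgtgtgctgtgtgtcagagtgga
This motif, which reads the same on both strands, began 181 bases before the start and was found in the window of 1 of the 10 members, against 1.59% of 33469 windows of that length. The start used for Ppargc1a lies inside the gene, which spans 63073505 to 63729215 on that chromosome. The printed window is therefore not the one before the gene's outer end. No match says only that these letters are not in the window.

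Esrra (293701), the receptor through which PGC-1 coactivators reach mitochondrial genes, had signals of 122.9, 426.5 and 888.7 in obese and 96.7, 364.9 and 481.8 in lean rats. Obese rats 1, 3 and 6 lay above every lean rat, while obese rat 8 lay near the bottom of the lean range. Esrra differed by 0.47 ± 0.34 on the log2 scale (SE; limma adjusted p = 0.612), and without the pair 0.49 ± 0.38 (SE; limma adjusted p = 0.603). Log2 Ppargc1a minus log2 Esrra was lower by 0.81 in obese rats, at 0.70 ± 1.02 (SD, n = 7) against 1.51 ± 1.09 (SD, n = 8). A difference between these means was not detectable (exact two-sided permutation p = 0.163, adjusted p = 0.391).

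A relation between Ppargc1a and Ppargc1b across rats came from 2 of them. With the group means removed, the log2 values of both had a Pearson r of 0.84 over 13 arrays (permutation p = 0.00278, adjusted p = 0.00834 over 3 pairs of members) and a Spearman rho of 0.36 (permutation p = 0.232, adjusted p = 0.359). The relation rests on lean rat 4 and obese rat 7, which had the lowest signals of both genes in their groups. Without these 2 rats r was 0.09. The log2 ratio of 3 prime to 5 prime Gapdh signal, which grows as RNA degrades, was 1.35 in lean rat 4 and 0.51 in obese rat 7, within ranges of 0.56 to 1.38 in lean and 0.35 to 1.07 in obese rats. Ucp2 had r of 0.36 with Ppargc1a and 0.48 with Ppargc1b (permutation p = 0.235 and 0.0936, adjusted p = 0.235 and 0.14; rho 0.10 and 0.35, permutation p = 0.736 and 0.239, adjusted p = 0.736 and 0.359). Without obese rat 6 and lean rat 8, farthest from the median of Ucp2, these r were 0.59 and 0.70.

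**Figure D3:**
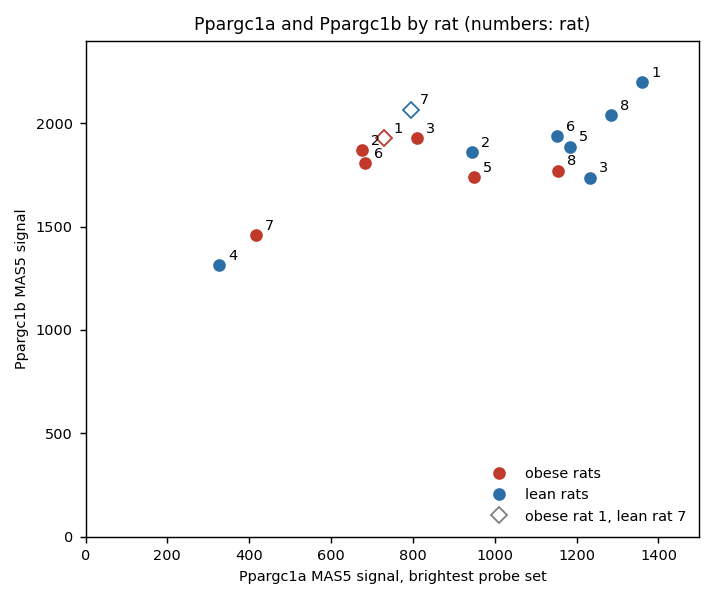
Ppargc1a signal (x axis) against Ppargc1b signal (y axis) on linear axes, 1 point per rat with its number; open diamonds are obese rat 1 and lean rat 7. Lean rat 4 (326.6 and 1314.6) and obese rat 7 (417.3 and 1458.1) lie apart at the lower left, and without them r over the remaining rats of the 13 arrays is 0.09.

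Genes whose values ran most like those of the 3 brighter members, by Pearson r of group-centred log2 values over the same 13 arrays, are given as a description, since the 13 arrays also share scaling and RNA quality. For Ucp2 these were the chemokine Ccl3 (r = 0.88), Lmbr1l (0.86) and Pdk4 (0.85), a kinase that inhibits pyruvate dehydrogenase. For Ppargc1a they were Wdr38, Cbfa2t3 and Pds5b (r = 0.93, 0.93 and 0.90, Spearman rho 0.79, 0.62 and 0.75). For Ppargc1b they were Gse1, the cytokine Il18 and the pocket protein gene Rbl1 (r = 0.95, 0.94 and 0.91, rho 0.92, 0.84 and 0.73). The genes named for Ucp2 had rho of 0.88, 0.85 and 0.84. Whether the r for Ppargc1a and Ppargc1b rest on the rats that carried their relation to each other was not tested. Pds5b and Rbl1 were dim, at the 17.9th and 36.7th percentile of brightness.

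Dio2 (65162), the deiodinase that turns thyroxine into active thyroid hormone within the brown fat cell, showed the largest difference of any member. Its signals were 104, 109.7, 83.5, 65.8, 273.2, 97 and 218.5 in obese rats 1, 2, 3, 5, 6, 7 and 8. They were 210.6, 253.4, 385.3, 114.4, 477.7, 541.1, 111.3 and 467.5 in lean rats 1 to 8. Of the obese rats 5 of 7 lay below every lean rat, and 4 of 8 lean rats above every obese rat, while obese rats 6 and 8 lay within the lean range and lean rats 1, 2, 4 and 7 within the obese range. The log2 fold change was -0.83 ± 0.29 (SE; limma unadjusted p = 0.0104, adjusted p = 0.288), with a 95% interval of -1.44 to -0.22. Without the pair it was -0.94 ± 0.29 (SE; limma unadjusted p = 0.00634, adjusted p = 0.191), so Dio2 missed the threshold in both. The adjusted p ran from 0.202 to 0.565 over the alternatives with 15 arrays and from 0.136 to 0.322 without the pair. The probe set lay at the 18.9th percentile of brightness. Pseudocounts of 1 and 291.2 moved the log2 fold change to -1.18 and -0.48 with 15 arrays, and to -1.33 and -0.55 without the pair. At this brightness the interval on the log2(signal + 79.9) scale does not bound the size of a change of the transcript. The Gapdh ratio averaged 0.77 ± 0.28 among the obese (SD, n = 7) and 1.05 ± 0.26 among the lean rats (SD, n = 8; exact two-sided permutation p = 0.0746), and with it as a covariate the log2 fold change of Dio2 was -1.07 with 15 arrays and -1.25 without the pair (limma adjusted p = 0.565 and 0.267).

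Prdm16 (100366024), the regulator that commits precursors to the brown fate, had negative log2 fold changes on both probe sets. On the brighter one, signals were 52.9, 155.2 and 315.3 in obese and 59.9, 331.4 and 451.5 in lean rats. All 7 obese rats lay below the lean median with 15 arrays, yet the groups overlapped from 59.9 to 315.3. Without the pair 3 of 6 obese rats lay below the lean median of 266.9 and 3 above it. This gave a log2 fold change of -0.47 ± 0.35 on it and -0.21 ± 0.36 on the dimmer one (SE; limma adjusted p = 0.622 and 0.846). Without the pair these were -0.39 ± 0.39 and -0.37 ± 0.39 (SE; limma adjusted p = 0.706 and 0.723).

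The effector genes come last. Elovl3 (309449), the elongase of very long fatty acids that cold induces in brown fat, had signals of 26.2, 134.6 and 254.5 in obese and 14.5, 34.5 and 186 in lean rats. Above the lean median lay 6 of 7 obese rats, but only obese rat 2 lay above every lean rat. Elovl3 differed by 0.39 ± 0.28 on the log2 scale (SE; limma adjusted p = 0.61), and without the pair 0.42 ± 0.31 (SE; limma adjusted p = 0.58). Pseudocounts of 1 and 291.2 moved it to 0.95 and 0.17 with 15 arrays, and to 1.04 and 0.18 without the pair.

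Cox7a1 (687508) and Cox8b (25250) are subunits of cytochrome c oxidase in forms typical of heart, muscle and brown fat. Cox7a1 signals were 75.1, 113.1 and 772.1 in obese and 109.1, 181.9 and 746 in lean rats. High values occurred in both groups: obese rats 6 and 7 had 540 and 772.1, and lean rats 1 and 2 had 746 and 604.5. Cox7a1 differed by -0.25 ± 0.43 on the log2 scale (SE; limma adjusted p = 0.855), the least precise of the 13, and without the pair -0.09 ± 0.48 (SE; limma adjusted p = 0.954), where its sign turned under median centring and quantile normalization. There it also turned on dropping any 1 of obese rats 2, 5 and 8 and lean rats 1 and 2, to between 0.031 and 0.14. Cox8b, at 21.3 to 74.3 in obese and 29.8 to 78 in lean rats, lay lowest of the members in brightness percentile. Its log2 fold change was -0.06 ± 0.12 (SE; limma adjusted p = 0.879), with the sign turned under median centring and, with 15 arrays, quantile normalization. Signals this far below the pseudocount of 79.9 give a narrow spread on this scale, so the small error does not bound a change of the transcript. Log2 Cox8b minus log2 of its ubiquitous relative Cox8a differed by -0.10 between the groups (exact two-sided permutation p = 0.553, adjusted p = 0.553). For the same reason this difference cannot tell whether Cox8b changed unlike Cox8a.

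**Figure D4:**
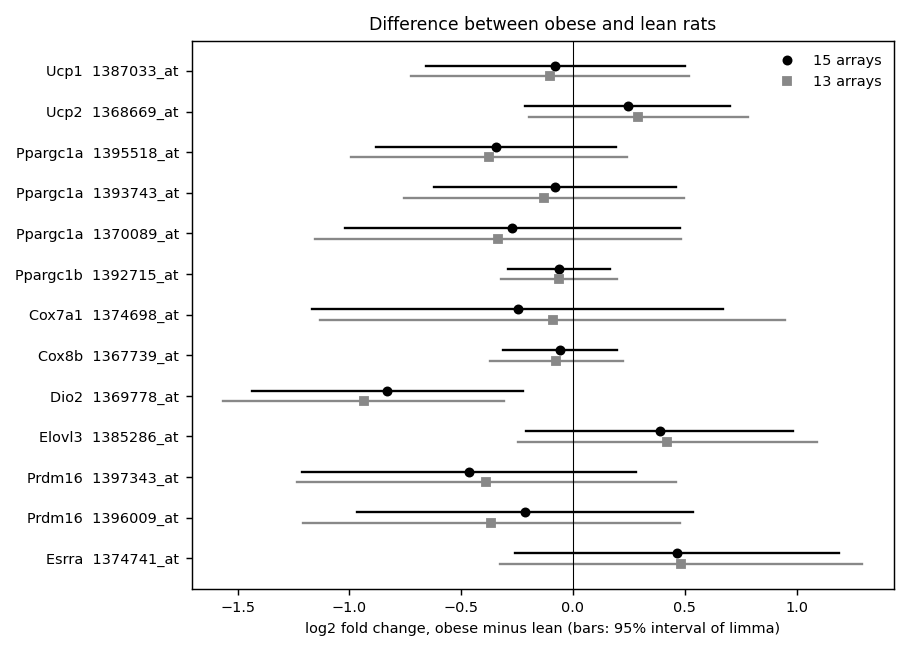
Log2 fold change, obese minus lean (x axis), of each member probe set, with its 95% interval from limma; black points are 15 arrays and grey squares are the 13 arrays without obese rat 1 and lean rat 7. The intervals of Dio2 lie below 0 (-1.44 to -0.22 with 15 arrays) and those of the other 12 probe sets include 0; none has an adjusted p under 0.05.

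Genes related to the members were taken from lists by name, each gene by its brightest probe set. Of 19 other brown and beige fat genes measured, limma called 0 with 15 arrays and 1, Fabp3, without the pair; 8 were positive in both, with medians of -0.07 and -0.09. Fabp3, a fatty acid carrier of brown fat, heart and muscle, rose without the pair, its log2 fold change being 2.38 ± 0.43 (SE; limma adjusted p = 0.0496). Signals averaged 464 ± 396 in the 7 lean rats and 2817 ± 2142 in the 6 obese rats (SD), and the groups overlapped. The change was 2.17 ± 0.44 over 15 arrays (SE; limma adjusted p = 0.192). Its call was lost when any of obese rats 2, 3, 6, 7 and 8 and lean rats 1 to 6 was dropped as well (adjusted p between 0.0632 and 0.111), with a pseudocount of 1 (0.0701) and once the Gapdh ratio entered the fit (0.255). The log2 fold change was 2.63 and 1.79 in the latter settings, and 2.07 to 2.64 with a rat dropped. The lipid droplet protein Cidea, a common marker of brown fat, had 0.60 ± 0.11 without the pair (SE; limma adjusted p = 0.0526) and 0.51 ± 0.12 with 15 arrays (SE; limma adjusted p = 0.208). All 6 obese rats then lay above all 7 lean rats for Cidea, as for 0.59% of probe sets. Over the 23 alternatives it passed in 7, among them the filters on dim probe sets (adjusted p = 0.0203 and 0.0074) and median centring (0.0408). It did not pass with a pseudocount of 1 (0.0701), quantile normalization (0.0534), the Gapdh ratio (0.25) or any further rat left out (0.068 to 0.13). Glycerol kinase (Gk) had -0.26, turning to 0.14 by the mean over its probe sets, and the beta-3 adrenergic receptor Adrb3 -0.64 (limma adjusted p = 0.34 and 0.325).

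Of 18 genes of the adrenergic, thyroid and peptide input to thermogenesis, 0 passed in either set of arrays, with 1 and 2 at an unadjusted p under 0.05. Adrb3, the receptor through which noradrenaline reaches the rat fat cell, averaged 4986 ± 1849 among 6 obese rats (SD) and 7660 ± 2297 among 7 lean rats (SD), the pair left out. With the Gapdh ratio in the fit its log2 fold change moved from -0.64 to -0.094 (limma adjusted p = 0.903), and over 15 arrays from -0.55 to -0.087 (0.917). The beta-1 receptor Adrb1 had a log2 fold change of -0.58, the thyroid hormone receptor Thrb -0.31 and the natriuretic peptide clearance receptor Npr3 0.30 there (limma adjusted p = 0.393, 0.301 and 0.394). Of 27 partners of the PGC-1 coactivators, 0 passed in either set of arrays. With 15 arrays 9 were positive and 18 negative, and without the pair 8 and 19, where 39.6% and 39.3% of all probe sets were positive. Their medians were -0.07 and -0.08, near the -0.06 and -0.07 of all probe sets. The kinase subunit Prkaa1 (AMPK alpha 1), which activates PGC-1alpha, had -0.36 ± 0.10 without the pair (SE; limma adjusted p = 0.148), and Ppard, Gabpa and Tfb1m had -0.28, -0.16 and -0.12 (limma adjusted p from 0.434 to 0.697). Of 15 partners of PRDM16, 0 passed in either, and 7 were positive and 8 negative in both, with medians of -0.05 and -0.06. Mecom, its close relative, had -0.35, Rbl1 0.55, Cebpb 0.27 and Ctbp2 0.21 without the pair (limma adjusted p from 0.296 to 0.511). Adrb1 and Rbl1 lay at or below the 40th percentile of brightness.

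Other subunits and relatives of the members gave 0 calls in either set of arrays. Of 12 further cytochrome c oxidase subunits, 7 were positive and 5 negative in both sets of arrays, with medians of 0.02 and 0.03. Cox5b, Cox6a1 and Cox6b1 had log2 fold changes of 0.37, 0.34 and 0.31 without the pair and the muscle form Cox6a2 -0.35 (limma adjusted p from 0.234 to 0.55). Of 4 other elongases, Elovl6 had 0.45, Elovl1 0.29, Elovl5 0.11, with the sign turned under quantile normalization, and Elovl2 -0.20 (limma adjusted p from 0.275 to 0.738). Of 7 other uncoupling protein relatives and ADP/ATP carriers, Slc25a4 had 0.24, Slc25a5 0.19, Slc25a27 (UCP4) -0.36 and Slc25a30 -0.15 (limma adjusted p from 0.243 to 0.683). Of 15 genes of mitochondrial content, 12 were positive in both sets of arrays; the outer membrane channel Vdac1 had 0.42 (limma adjusted p = 0.128) and Hspd1, Cyc1 and Ogdh had 0.22, 0.23 and 0.18. Of 14 genes of calcium, creatine and lipid cycles, 5 were positive and 9 negative in both sets of arrays, where 39.6% and 39.3% of all probe sets were positive. Without the pair sarcolipin (Sln), which uncouples the calcium pump, had -1.03 and the calcium channel Ryr2 -0.74 (limma adjusted p = 0.301 and 0.288). The calcium pump Atp2a2 had 0.20, with the sign turned by the mean over its probe sets. Sln, Ryr2, Cox6a2 and Elovl2 lay at or below the 40th percentile of brightness.

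**Figure D5:**
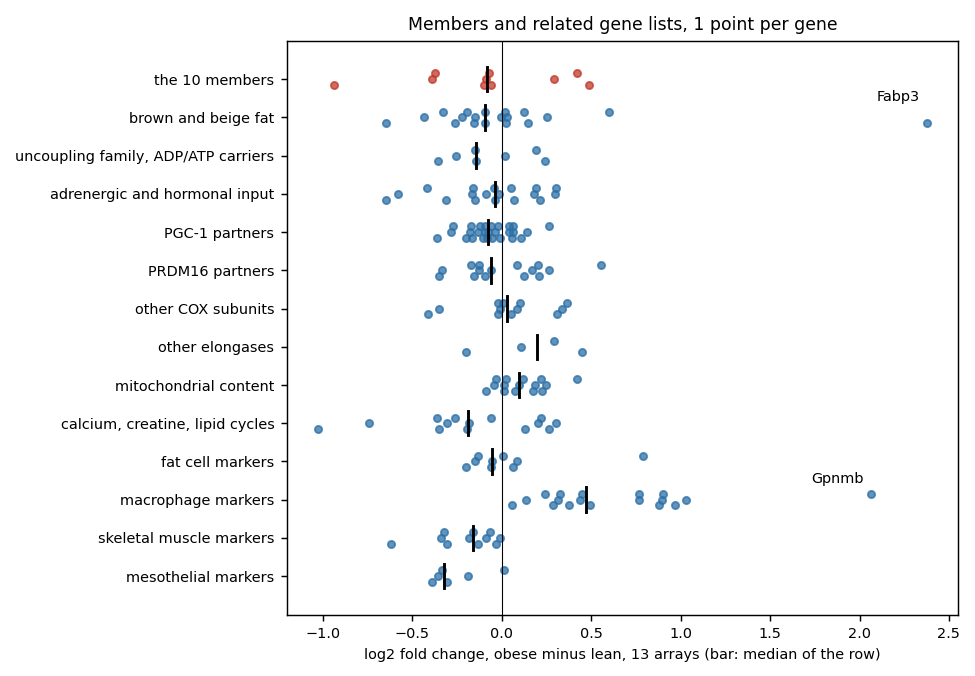
Log2 fold change, obese minus lean, over 13 arrays (x axis); each point is 1 gene by its brightest probe set and each black bar the median of its row. The 10 members (red, median -0.08) lie on both sides of 0. Macrophage markers (median 0.47) lie to the right, as do 12 of 15 genes of mitochondrial content. All 11 skeletal muscle markers and 5 of 6 mesothelial markers lie to the left. Fabp3 and Gpnmb are the points that passed the threshold.

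The tissue gave bright fat cell markers: all 9 lay at or above the 82.8th percentile of brightness, with Adipoq and Plin1 at the 99.7th. This does not settle which fat depot was sampled. Without the pair Lep had a log2 fold change of 0.79, Slc2a4 -0.20, Adipoq -0.15 and Plin1 -0.13, and 0 of 9 passed in either set of arrays. Skeletal muscle, which also expresses Cox7a1 and Cox8b, was looked for through 11 markers, of which 10 with 15 arrays and 11 without the pair had a negative log2 fold change, and 4 lay above the 40th percentile, while Acta1 and Mb lay at the 8.55th and 15.3th. Tnnt1 and Myh2 had log2 fold changes of -0.62 and -0.33 without the pair, Tnnc2 -0.30 and Myh1 -0.16. Of these, all but Myh1 lay at or below the 40th percentile of brightness, and 0 of the 11 passed in either set of arrays. The rats' mean over these 11 markers ran from -0.30 to 0.23 in obese and from -0.25 to 0.24 in lean rats. It was below 0 in 6 of 7 obese and above 0 in 6 of 8 lean rats. The part of muscle in the Cox7a1, Sln and Ryr2 values was not tested. Mesothelium, the lining of the fat pad, had 6 markers measured, with 0 passing in either set of arrays, means from -0.49 to 0.43 in obese and -0.70 to 0.60 in lean rats, and log2 fold changes of -0.39 for Upk1b, -0.36 for Msln, -0.31 for Krt19 and -0.19 for Wt1 without the pair. Among macrophage markers, Gpnmb rose by 2.07 ± 0.27 (SE) in the 13 arrays (limma adjusted p = 0.0131), and had 1.92 (adjusted p = 0.136) with the Gapdh ratio in the fit, which called no probe set of the array, while Lgals3 had 0.90 and Laptm5 0.97 (limma adjusted p = 0.0526 and 0.0697).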

How the data were processed

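The deposited intensity values are MAS5 signals on a linear scale, per the submitters' processing notes; the version and settings are not given in the sources used here. The table held 31099 probe sets, and its 57 controls were left out. The 2% trimmed mean was 1500.34 to 1500.42 on every array, which points to a common scaling by the authors; no further scaling was applied. MAS5 takes mismatch probes into account, and its dim values are noisy.

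Values were put on the scale log2(signal + 79.9), the 10th percentile of all signals, and tested in limma 3.58.1 under R 4.3.3 (lmFit, eBayes; 95% intervals from its moderated errors), adjusting over all 31042 probe sets without a filter, since dim members were to be kept. The platform annotation gave 1 gene to 20826 probe sets, several to 436 and none to 9780; symbols were updated through Entrez IDs. Within-rat differences of 4 fixed pairs were compared by exact two-sided permutation of the rats; another, Cox7a1 minus Cox7a2, was left out, as no probe set named Cox7a2 alone. Correlations used 100000 permutations. The labels number the rats within each group; per the labels each is a different animal, which the near-identical arrays of obese rat 1 and lean rat 7 leave in doubt for that pair, so p-values with 15 arrays rest on taking both as separate rats.

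The members and the gene lists were chosen with earlier results of these data known. Genes named beside the members were Fabp3, the 3 of each list with the smallest p with 15 arrays, or 4 where members went both ways, and the 3 most correlated with each brighter member. Alternatives were pseudocounts of 1 and 291.2, filters at the 40th and 60th percentile, quantile normalization, median centring, a block on the rat number, trend and robust eBayes, the Gapdh ratio as a covariate, averaging the probe sets of a gene and each rat left out. Simulated data of 31042 probe sets were used to test the fit: for the comparison of 15 arrays it recovered 32% of changes of 0.5 on the log2 scale, 72% of 1, 94% of 2 and 100% of 3, and for that of 13 arrays 16%, 76%, 96% and 96%. Of the simulated calls 5.7% and 7.8% were false. The changed probe sets were drawn at random over the array, with independent normal noise. These shares therefore do not give the recovery of the dim members, most of which scatter more. Figures were drawn with matplotlib 3.10.9.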

Additional observations from a re-analysis of the deposited data

Results flagged for a closer look

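Within groups, the values of each of the 13 member probe sets were checked for a rat far from the rest: the gap to the nearest other rat over the range of the group, on the log2 scale, against Dixon's 95% critical value (0.568 for 7 obese and 0.526 for 8 lean rats). Of 26 groups checked, 4 went past it, where chance gives about 1 in 20. Lean rat 4 stood below the other lean rats for the brightest Ppargc1a probe set, with a signal of 326.6 and a gap of 0.605 of the range, and for Ppargc1b, with a signal of 1314.6 and a gap of 0.538. Obese rat 7 stood below the other obese rats for Ppargc1b, with a signal of 1458.1 and a gap of 0.628. Obese rat 3 stood above the other obese rats for the dimmest Ppargc1a probe set, with a signal of 308.8 and a gap of 0.575.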

How the results depend on the processing

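No member passed under any alternative run: 0 of 235 fits with 15 arrays and 0 of 215 without the pair, the lowest adjusted p (limma) being 0.202 and 0.136. The filters leave out the dim members, and so gave them no value. Signs turned as follows. Ucp1 had 0.023 under median centring and 0.023 under quantile normalization with 15 arrays (without the pair 0.014 and 0.015), and with 1 rat left out ran from -0.18 to 0.075 (-0.24 to 0.064). Ppargc1b had 0.039 (0.055) and Cox8b 0.044 (0.042) under median centring, and Cox8b 0.0031 under quantile normalization with 15 arrays. Without the pair Cox7a1 had 0.026 under median centring, 0.014 under quantile normalization, and -0.40 to 0.14 with 1 rat left out. Elovl5 had -0.021 (-0.0028) under quantile normalization, and with the mean over probe sets Gk had 0.039 (0.14) and Atp2a2 -0.011 (-0.027). Median centring moved the median of all probe sets from -0.06 to 0.04, and from -0.07 to 0.05 without the pair.

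Over all probe sets, the 3 calls with 15 arrays (0 higher, 3 lower) became 0 with a pseudocount of 1, 1 with 291.2, 0 and 49 with filters at the 40th and 60th percentile, 14 with trend and robust (9 higher, 5 lower), 0 with the Gapdh ratio and 0 to 77 with 1 rat left out (77 without obese rat 1). At an unadjusted p under 0.05 the settings with 0 calls had 3566, 2898 and 2435. The 46 calls without the pair (30 higher, 16 lower) became 24, 114, 189, 334, 250 (190 higher, 60 lower) and 0 in that order, with 3189 at an unadjusted p for the last; 91 with median centring (76 higher, 15 lower); and 8 to 43 with 1 rat left out (8 without lean rat 2, 9 without obese rat 8). The cause was not tested, beyond filters testing fewer probe sets.

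A pairing of the rats by number was not evident, though this check cannot exclude one. Same-numbered rats had deviations correlated from -0.06 to 0.15, and 2 of 7 matched their own number best. The correlation within numbers fitted over all probe sets was 0.052 with 15 arrays and 0.057 without the pair. With the number as a replicate block 3 and 73 probe sets were called, and no member.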
